A study of Mus musculus with 3 samples.

Results

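The genes described here encode the subunits of the transcription factor NF-κB (Rel, Rela, Relb, Nfkb1 and Nfkb2) and its inhibitors and feedback regulators (Nfkbia, Nfkbib, Nfkbie, Nfkbiz and Tnfaip3), 10 genes in all. They were taken as every probe set, the group of short probes that reads 1 transcript on the array, whose platform gene symbol is 1 of these names. This gave 19 of 45037 probe sets and 9 of 18193 named genes. Nfkb1 has no probe set named in the annotation used here, and it was not analysed. Each array was hybridised with pooled back-skin RNA from male mice of 1 group. KOE is the group of IL-10 knockout (KO) mice fed a diet with 8% powdered eggshell membrane (pESM), KO is the knockout mice fed an AIN-93-based diet, and WT is the C57BL/6J mice fed that same diet. The groups are given as 5 WT, 7 KO and 6 KOE mice, but how many of them entered each pool is not stated. Feeding began at 4 weeks of age and lasted 28 weeks, so that KOE and KO share the Il10 allele and differ in diet. The methods describe the knockout mice as homozygous male offspring of heterozygous females and homozygous knockout males, a cross that gives no wild-type pups.

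NF-κB is a family of dimers held inactive in the cytoplasm by the IκB proteins. Signals from tumor necrosis factor, interleukin-1 and Toll-like receptors activate the IκB kinase complex, the IκB proteins are degraded, and the dimers enter the nucleus. Several of the inhibitors are themselves target genes, so that their transcripts rise when the pathway is active and then restrain it. In skin the pathway is known for its part in inflammation and in the survival of keratinocytes, and IL-10, the cytokine that the KO mice lack, is known to restrain it in myeloid cells.

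Promoter stretches of 4 members are shown because inhibitor genes of this family are known κB targets. All 4 hold the motif described next, so they do not contrast members with and without it. The κB motif, the letters GGG, any 3 bases and then TTCC, and its stricter form, GGGA, any base and then TTTCC, were searched on both strands in the 250 bases before each start site in the RefSeq table (GRCm38.p6). Every match of the stricter form is also a match of the κB motif, and the capitals mark the κB motif on either strand. Each run is the 120 bases that end just before the start site, or before the outermost listed one for Tnfaip3 and Nfkb2, 5′ to 3′ on the gene's strand.
Nfkbia, chr12:55492648-55492767, minus strand: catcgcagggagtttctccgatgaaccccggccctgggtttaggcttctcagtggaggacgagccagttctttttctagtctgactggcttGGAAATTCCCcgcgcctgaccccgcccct
Tnfaip3, chr10:19015411-19015530, minus strand: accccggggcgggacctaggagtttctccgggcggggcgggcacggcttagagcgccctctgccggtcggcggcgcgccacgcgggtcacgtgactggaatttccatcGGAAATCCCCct
Rel, chr11:23770970-23771089, minus strand: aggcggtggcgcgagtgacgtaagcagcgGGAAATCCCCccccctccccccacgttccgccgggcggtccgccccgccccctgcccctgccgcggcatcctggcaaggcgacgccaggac
Nfkb2, chr19:46304617-46304736, plus strand: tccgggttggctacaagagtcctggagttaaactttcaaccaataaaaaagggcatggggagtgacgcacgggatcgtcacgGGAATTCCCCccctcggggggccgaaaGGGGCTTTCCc
Nfkbia, on the capitalised stretch 29 to 20 bases before its start, also matched the stricter motif. Rel and Tnfaip3 held the same 10 letters, GGAAATCCCC, at 91 to 82 and at 12 to 3 bases before the start. Nfkb2 held a pair of matches in this window, and the stricter motif before another of its 3 listed start sites. Of the 7 members in the table, 5 held the κB motif before at least 1 start site, the 4 shown and Nfkbie, against 5.31% of all 27025 genes in the table, and 2 held the stricter form, against 0.414%. Rela and Nfkbib held neither. Relb, Nfkb1 and Nfkbiz have no entry. A match is a description of the letters and not a site of binding.

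Values here are linear signal intensities, scaled so that every array has a 2% trimmed mean of 500. A gene or probe set is called higher or lower here when its ratio is at least 1.5 in either direction and either array of the pair has a signal of at least 40. The probe set with the highest signal on average stands for its gene. With 1 array per group there is no replicate, no test across mice could be made, and every ratio compares these pools. Il10 itself, altered in KO and KOE, had signals of 401 in KOE, 679.9 in KO and 17.0 in WT at its probe set, and since the part of the allele that it reads is not known here, it does not check the knockout. All 6 keratinocyte and all 6 fibroblast marker genes reached 40 on every array. All 7 measured genes of the hair shaft and its sheath were lower in both knockout pools, KO and KOE, each against WT. Their summed signals were 589 in KOE, 779 in KO and 126617 in WT. In KOE vs. KO, 4 of these 7 hair genes were lower and none was higher. KO was lower than WT, and KOE higher than KO, in all 6 skeletal muscle markers, with summed signals of 26329 in KOE, 4772 in KO and 18803 in WT. The 4 measured adipocyte markers did the same, with sums of 11029 in KOE, 5093 in KO and 18017 in WT. Of the fibroblast markers Col1a1, a chain of type I collagen, was 2.83-fold lower in KO than in WT and 2.73-fold higher in KOE than in KO. It was the only 1 of the 6 past the cut-off in these 2 comparisons, where the median log2 ratios of the 6 were −0.20 and 0.14. The part of these tissue differences in the member results was not tested. In pooled tissue, fewer cells of a type and less RNA per cell cannot be told apart.

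The members were mostly higher in the KO pool than in the WT pool. Of 9 genes, 6 were higher and none was lower, where 10.9% of all 14495 genes reaching 40 were higher and 14.5% were lower. The 6 were Rel, Relb, Nfkbia, Nfkbib, Nfkbiz and Tnfaip3. The median log2 ratio of the 9 genes was 0.84, against 0.01 over all genes. Of the 19 probe sets, 12 were higher and none was lower, against 10.6% and 20.2% of all probe sets. The plot of signals shows the WT array as the lowest of the 3 at most of the probe sets.

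**Figure D1:**
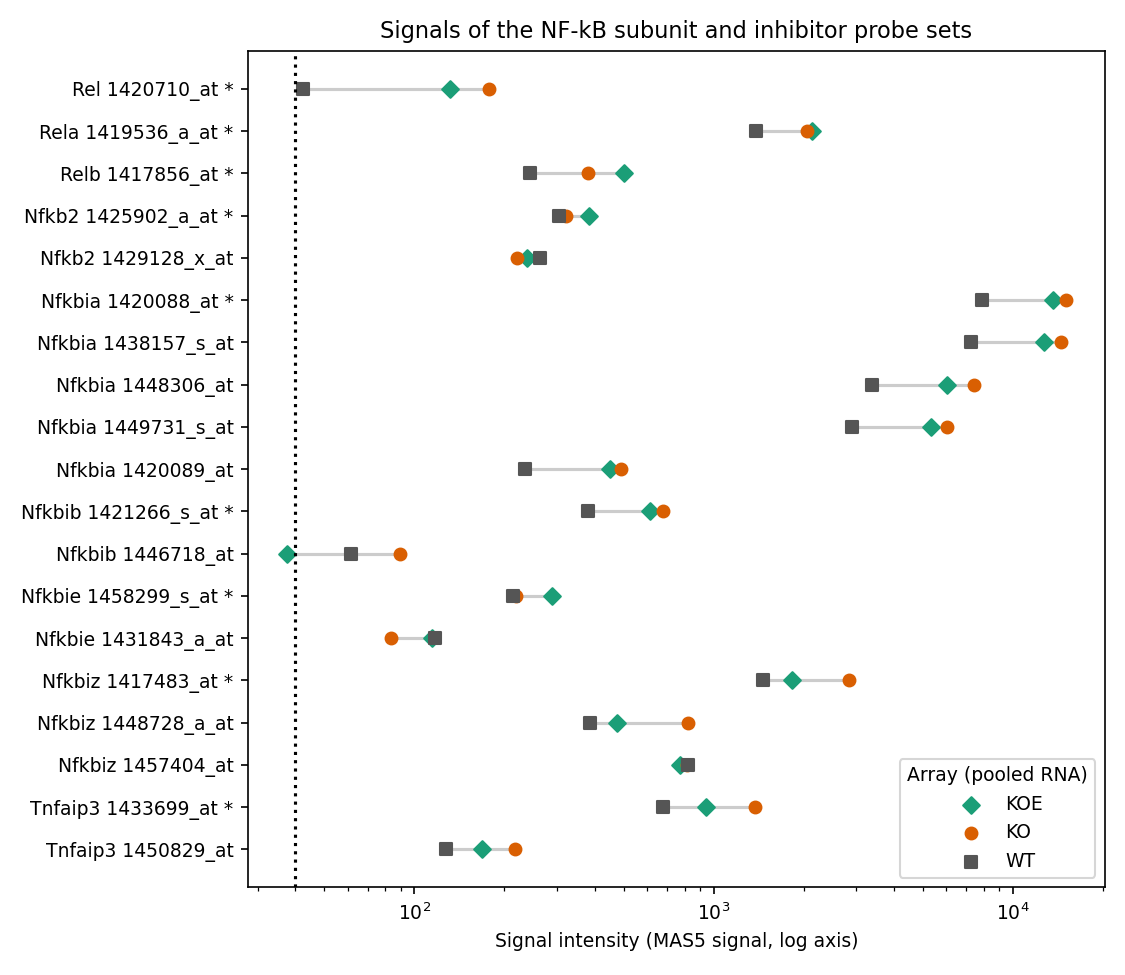
Signal intensity (horizontal log axis) of each of the 19 probe sets of the 9 measured genes on the KOE, KO and WT arrays, 1 point per array of pooled RNA. The asterisk marks the probe set read for the gene, the dotted line marks a signal of 40, and only 1 point, that of Nfkbib 1446718_at in KOE, lies under it.

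Among the subunits, Rel differed most between KO and WT. Rel encodes c-Rel, a subunit with the strongest known roles in lymphocytes and myeloid cells. Its single probe set had signals of 131 in KOE, 177 in KO and 42.5 in WT. The KO signal was 4.16-fold that in WT, and 1.13% of all genes had a higher ratio. The WT signal is close to the limit of 40, and with 40 added to every signal the ratio was 2.63, still past the cut-off.

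Rela and Relb, the other subunits that carry a transactivation domain, lay near the cut-off, with higher signals in KO than in WT. Rela, the subunit of the main activating dimer, had 2140.0 in KOE, 2048 in KO and 1390.0 in WT. Its ratio of KO to WT was 1.47, just under the cut-off. Relb, which acts mainly in the slower, noncanonical branch of the pathway, had 502 in KOE, 380.1 in KO and 243 in WT. Its ratio of KO to WT was 1.56, and it was under the cut-off, at 1.48, with 40 added to every signal. For these 2 genes WT was the lowest array and KOE the highest.

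Nfkb2, whose precursor protein is processed into the partner of Relb, was nearly level between KO and WT. At 1425902_a_at it had signals of 385 in KOE, 320.1 in KO and 303 in WT, with a ratio of KO to WT of 1.06. Its other probe set, 1429128_x_at, had 238 in KOE, 219 in KO and 263 in WT, a ratio of 0.84. The 2 probe sets lie on opposite sides of a ratio of 1 and neither is past the cut-off. Of the 4 measured subunits, 2 were higher in KO than in WT and none was lower.

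Nfkbia showed the most even difference among its probe sets. It encodes IκBα, the inhibitor that NF-κB induces within minutes to hours and that is degraded at the next signal. At 1420088_at, the strongest, its signals were 13699 in KOE, 15062.5 in KO and 7915 in WT. At 1438157_s_at they were 12703 in KOE, 14511 in KO and 7271 in WT. At 1448306_at they were 6026 in KOE, 7405 in KO and 3395 in WT. The other probe sets had 5353 in KOE, 6018 in KO and 2894 in WT (1449731_s_at), and 449.8 in KOE, 489.7 in KO and 235 in WT (1420089_at). All 5 were higher in KO than in WT, with ratios from 1.90 to 2.18. These ratios spanned 0.20 on the log2 scale, and of the 2658 genes with at least 3 probe sets at 40 in both arrays, 87.2% spanned at least as much. The probe sets read the same RNA pools and are not replicates. The promoter stretch of this gene shown above holds the stricter κB motif. Nfkb2, nearly level between KO and WT, also held it before another of its start sites. Nfkbie, level at its strongest probe set, held the κB motif. Nfkbib, 1.79-fold higher in KO than in WT at its strongest probe set, held neither form. Whether the motif relates to the ratios was not tested.

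The other classical inhibitors differed from each other. Nfkbib encodes IκBβ, an inhibitor that binds Rela and Rel dimers. At 1421266_s_at its signals were 614 in KOE, 677 in KO and 379 in WT, with a ratio of KO to WT of 1.79. At 1446718_at, a weak probe set, they were 37.5 in KOE, 89.5 in KO and 61.4 in WT, with a ratio of 1.46, under the cut-off. Read from that probe set, the gene has no call in KO vs. WT. Nfkbie, which encodes the related inhibitor IκBε, was level at 1458299_s_at, with 287 in KOE, 218 in KO and 214 in WT. At 1431843_a_at it had 114 in KOE, 83.8 in KO and 117 in WT, 1.40-fold lower in KO, so that its probe sets do not share a direction.

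Nfkbiz and Tnfaip3 were 1.94- and 2.03-fold higher in KO than in WT at their strongest probe sets. Nfkbiz encodes IκBζ, a nuclear member of the IκB family that acts as a cofactor of NF-κB and, in keratinocytes, mediates responses to IL-17 and IL-36. At 1417483_at its signals were 1831 in KOE, 2829 in KO and 1461 in WT, a ratio of KO to WT of 1.94. At 1448728_a_at they were 476 in KOE, 823 in KO and 385 in WT, a ratio of 2.14. At 1457404_at the 3 arrays were level, with 775 in KOE, 814 in KO and 819.7 in WT. The ratios of its 3 probe sets spanned 1.10 on the log2 scale, and 13.5% of genes with at least 3 probe sets spanned as much or more. Which transcripts each of them reads was not tested.

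Tnfaip3 encodes A20, a ubiquitin-editing enzyme that shuts off signaling from the tumor necrosis factor and Toll-like receptors. At 1433699_at its signals were 946 in KOE, 1377 in KO and 677 in WT, with a ratio of KO to WT of 2.03. At 1450829_at they were 168 in KOE, 217 in KO and 127 in WT, a ratio of 1.70. Both probe sets have the order KO, KOE, WT from high to low. Of the 5 inhibitor and feedback genes, 4 were higher in KO than in WT and none was lower, and their median log2 ratio was 0.93.

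**Figure D2:**
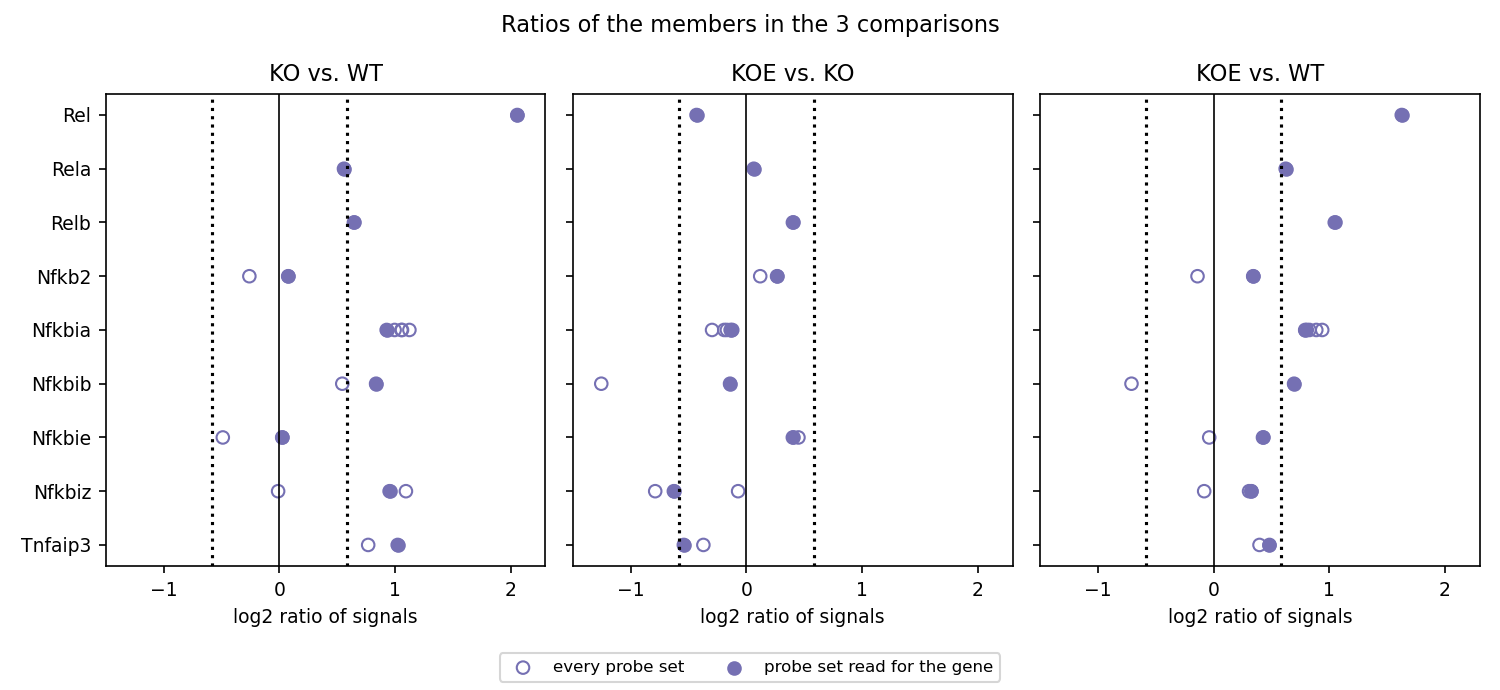
Log2 ratio of signals of each measured gene in the 3 comparisons (KO vs. WT left), with 1 point per probe set and dotted lines at 1.5-fold. Open points mark every probe set, and a filled point covers the one read for the gene. In KO vs. WT the filled points of Rel, Relb, Nfkbia, Nfkbib, Nfkbiz and Tnfaip3 lie to the right of the line.

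Ratios of one gene to another do not depend on a linear scaling of the arrays. Set against Rela, the ratio of KO to WT was 2.82 times as high for Rel, 1.38 for Tnfaip3, 1.31 for Nfkbiz, 1.29 for Nfkbia and 1.21 for Nfkbib. It was 1.06 for Relb, 0.72 for Nfkb2 and 0.69 for Nfkbie. The transcripts of the family thus differed unequally between the 2 pools. When the arrays were brought to the same median instead, a shift of 0.27 in each log2 ratio, 7 of the 9 genes were higher in KO, Rela among them at 1.78-fold, but 23.3% of all genes were then higher and 8.83% were lower. After quantile normalization the same counts of members held, 6 higher and none lower, with 14.7% of all genes higher and 10.8% lower.

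The KOE and KO pools differed less in most of these genes than the KO and WT pools. Nfkb2 and Nfkbie differed more, with log2 ratios of 0.26 and 0.40 in KOE vs. KO against 0.08 and 0.03 in KO vs. WT. KOE vs. KO asks about the diet. It shares the KO array with KO vs. WT, so that noise of that array enters both in opposite directions. Of the 9 genes, 1 was lower in KOE, Nfkbiz, and none was higher, where 5.33% of all 14594 genes were lower and 10.9% were higher. The median log2 ratio was −0.14, against 0.02 over all genes. Of the 19 probe sets, 3 were lower, 2 of Nfkbiz and 1 of Nfkbib, and none was higher, against 5.93% and 14.5% of all probe sets.

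Nfkbiz was 1.54-fold lower in KOE than in KO at 1417483_at and 1.73-fold lower at 1448728_a_at, while 1457404_at differed by 1.05-fold. Averaged over its 3 probe sets the ratio was 0.71, short of the cut-off, and the 1 lower gene was then Nfkbib at 0.62. Tnfaip3 lay in the same direction without reaching the cut-off, 1.46-fold lower at its stronger probe set and 1.29-fold at the other, and Rel had a ratio of 0.74. After median scaling Tnfaip3 and Rel were past the cut-off too, which made 3 lower genes where 9.06% of all genes were lower and 7.98% were higher. Rel was also past it after cyclic loess normalization.

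Nfkbia stayed close to its KO signal in the KOE pool. Its 5 probe sets had ratios of KOE to KO from 0.81 to 0.92, and none was past the cut-off. Nfkbib had a ratio of 0.91 at its strongest probe set. At the weak 1446718_at it was 2.39-fold lower, where the KOE signal of 37.5 lies under 40.

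The other subunits and Nfkbie had higher signals in KOE than in KO, all under the cut-off, though after median scaling the log2 ratio of Rela was −0.10. The ratios of KOE to KO were 1.04 for Rela, 1.32 for Relb, 1.20 for Nfkb2 and 1.32 for Nfkbie, and the second probe sets of Nfkb2 and Nfkbie gave 1.09 and 1.37. Set against Rela, the ratio was 1.61-fold lower for Nfkbiz, 1.52-fold lower for Tnfaip3, 1.41-fold lower for Rel and 1.15-fold lower for Nfkbia, and it was 1.26-fold higher for Relb and Nfkbie. The 3 genes with the lowest ratios thus include 1 subunit, Rel, and 2 of the inhibitor and feedback genes.

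Set against WT, the KOE pool still had higher signals for several members. Of the 9 genes, 5 were higher in KOE than in WT and none was lower, where 12.4% of all 14784 genes were higher and 10.4% were lower. The 5 were Rel at 3.09-fold, Relb at 2.07-fold, Nfkbia at 1.73-fold, Nfkbib at 1.62-fold and Rela at 1.54-fold. Rela was under the cut-off after cyclic loess normalization, at 1.48-fold. The call for Nfkbib rests on 1421266_s_at, since 1446718_at was 1.64-fold lower in KOE than in WT. Tnfaip3 and Nfkbiz, at 1.40- and 1.25-fold, were not past the cut-off, nor were Nfkbie and Nfkb2, at 1.34- and 1.27-fold. Of the 19 probe sets 9 were higher and 1 was lower, against 13.2% and 14.5% of all probe sets.

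**Figure D3:**
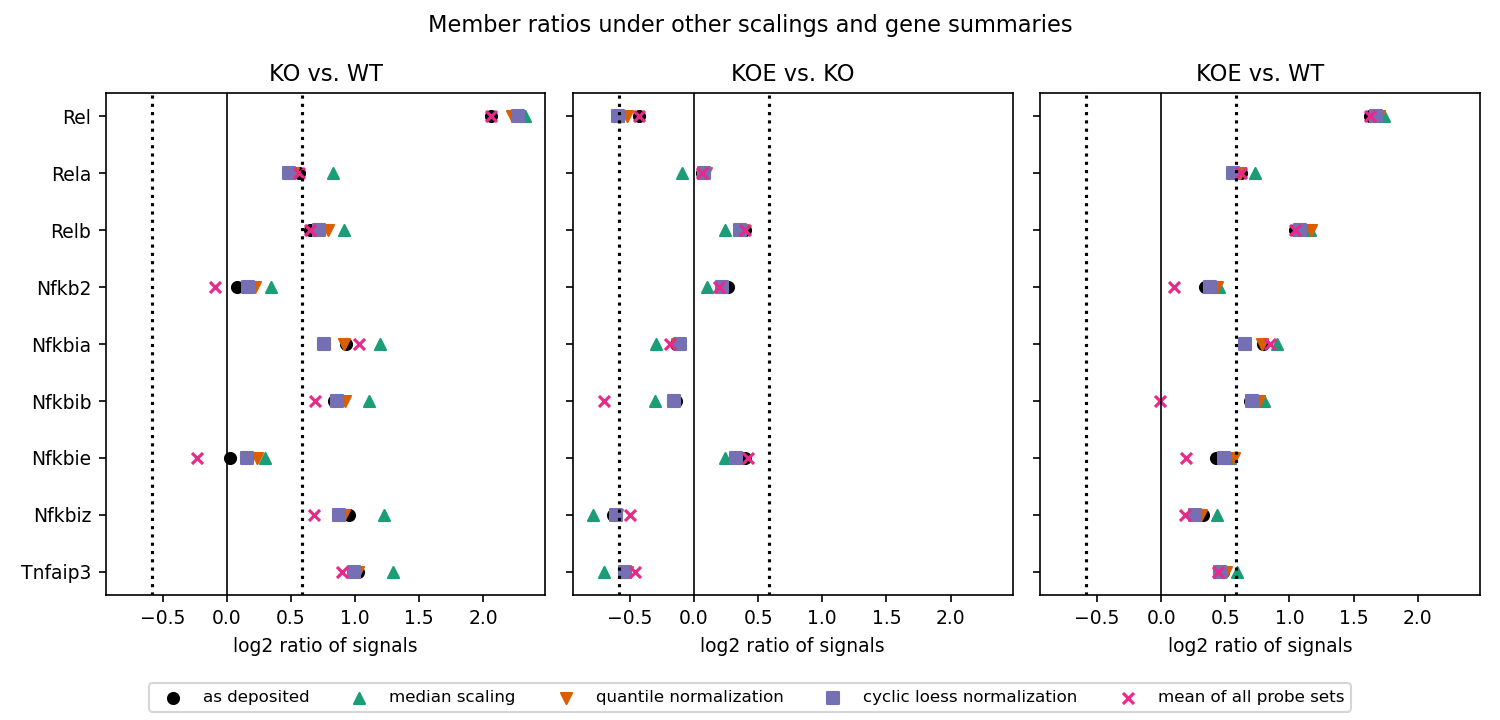
Log2 ratio of signals of the 9 measured genes in the 3 comparisons as deposited, after 3 other scalings, and averaged over a gene's probe sets, with dotted lines at 1.5-fold. Rel lies right of the line under all 5 in KO vs. WT and KOE vs. WT, while Nfkbib in KOE vs. WT moves to about 0 with the mean of its 2 probe sets.

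Most of the kinases that release NF-κB were under the cut-off in every comparison. The lists from here on were chosen with earlier results of these data known, and their counts stand beside the shares of all genes given above, 10.9% higher and 14.5% lower in KO vs. WT and 10.9% higher and 5.33% lower in KOE vs. KO. Of 11 measured genes of the IκB kinase complex and its activating kinases, 1 was higher in KO than in WT, none was lower, and the median log2 ratio was 0.02. None was past the cut-off in KOE vs. KO, where the median was −0.03. In KOE vs. WT, Tab1, a subunit of the TAK1 kinase complex, was 1.60-fold lower, and none was higher. The gene higher in KO than in WT was Map3k8, a kinase that the Nfkb1 precursor holds inactive. It had 513 in KOE, 650.4 in KO and 368 in WT. Tab2, an adaptor of the kinase TAK1 and the strongest signal of the list, had 3432 in KOE, 3319 in KO and 3265 in WT.

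Of 19 adaptors and ubiquitin enzymes below the tumor necrosis factor and interleukin-1 receptors, 4 were higher in KO than in WT and 1 was lower. Birc3, a ubiquitin ligase and known NF-κB target, had 1272 in KOE, 1429 in KO and 822 in WT. Irak2, a kinase of the interleukin-1 receptor complex, had 452 in KOE, 471 in KO and 271 in WT. With 40 added to every signal, or with the mean of a gene's probe sets, 2 were higher in KO than in WT. The shares of all genes were then 7.96% and 11.3%. In KOE vs. KO, 2 were higher and none was lower, and those 10.5% are close to the share of all genes. Irak1, another kinase of that complex, had 1519 in KOE, 835 in KO and 1119 in WT, and Rnf31, the catalytic subunit of the linear ubiquitin ligase, had 216 in KOE, 121 in KO and 146 in WT. Ube2d3, a ubiquitin-conjugating enzyme and the strongest of the list, was level, with 12107 in KOE, 12617 in KO and 12999 in WT.

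Of 19 other inhibitors and feedback regulators, 3 were higher in KO than in WT, none was lower, and the median log2 ratio was 0.15. After median scaling 6 were higher, where 23.3% of all genes were. Zc3h12a, which encodes Regnase-1, a ribonuclease that degrades transcripts of inflammation, had 346 in KOE, 787 in KO and 196 in WT. This was 4.02-fold higher in KO than in WT and 2.28-fold lower in KOE than in KO. Ppp2ca, the catalytic subunit of a phosphatase and the strongest of the list, was level. Bcl3, a nuclear IκB protein, had 215 in KOE, 229 in KO and 104 in WT. Nfkbid, another nuclear IκB protein, was 2.08-fold lower in KOE than in KO, with 68.7 in KOE, 142.7 in KO and 114 in WT. It and Zc3h12a were the 2 genes of the list lower in KOE, and none was higher.

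Receptors and ligands that activate the pathway were higher in KO more often than lower. Of 21 measured genes 8 were higher and 2 were lower in KO vs. WT, and 1 was higher and 4 were lower in KOE vs. KO. With a signal of 40 required in both arrays, 5 were higher and 1 was lower in KO vs. WT, against 8.79% and 10.5% of all genes. None was then higher in KOE vs. KO, against 5.91%. After median scaling 7 were lower in KOE vs. KO, against 9.06%. Tlr4, the receptor for lipopolysaccharide, had 228 in KOE, 513 in KO and 193 in WT at its strongest probe set. Il1a and Il1b encode the 2 forms of interleukin-1. Il1a had 135 in KOE, 155 in KO and 69.0 in WT, and Il1b had 142 in KOE, 486 in KO and 218 in WT. Tnfrsf1a, the main receptor of tumor necrosis factor, had 3578 in KOE, 3306 in KO and 2388 in WT, with no call in either comparison.

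Of 30 other genes known as NF-κB targets, KO vs. WT had 7 higher and 2 lower, and KOE vs. KO had 2 higher and 7 lower. The median log2 ratio of the 25 that reached 40 was 0.36 in KO vs. WT and −0.15 in KOE vs. KO. In KO vs. WT 14 were higher after median scaling and 11 after quantile normalization, where 23.3% and 14.7% of all genes were. Lcn2, an antibacterial lipocalin whose transcription is known to depend on IκBζ, had 741 in KOE, 1282 in KO and 209 in WT. S100a9, a subunit of calprotectin, had 282 in KOE, 550.2 in KO and 187 in WT. S100a8, its other subunit, was not higher in KO than in WT, with 293 in KOE, 815 in KO and 982 in WT. Ptgs2, the inducible cyclooxygenase, had 83.6 in KOE, 291 in KO and 39.2 in WT. Ccl5, a chemokine for T cells, ran the other way in KOE vs. KO, with 174 in KOE, 48.5 in KO and 40.6 in WT. Ier3, the strongest of the list, had 3341 in KOE, 4374 in KO and 2796 in WT.

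**Figure D4:**
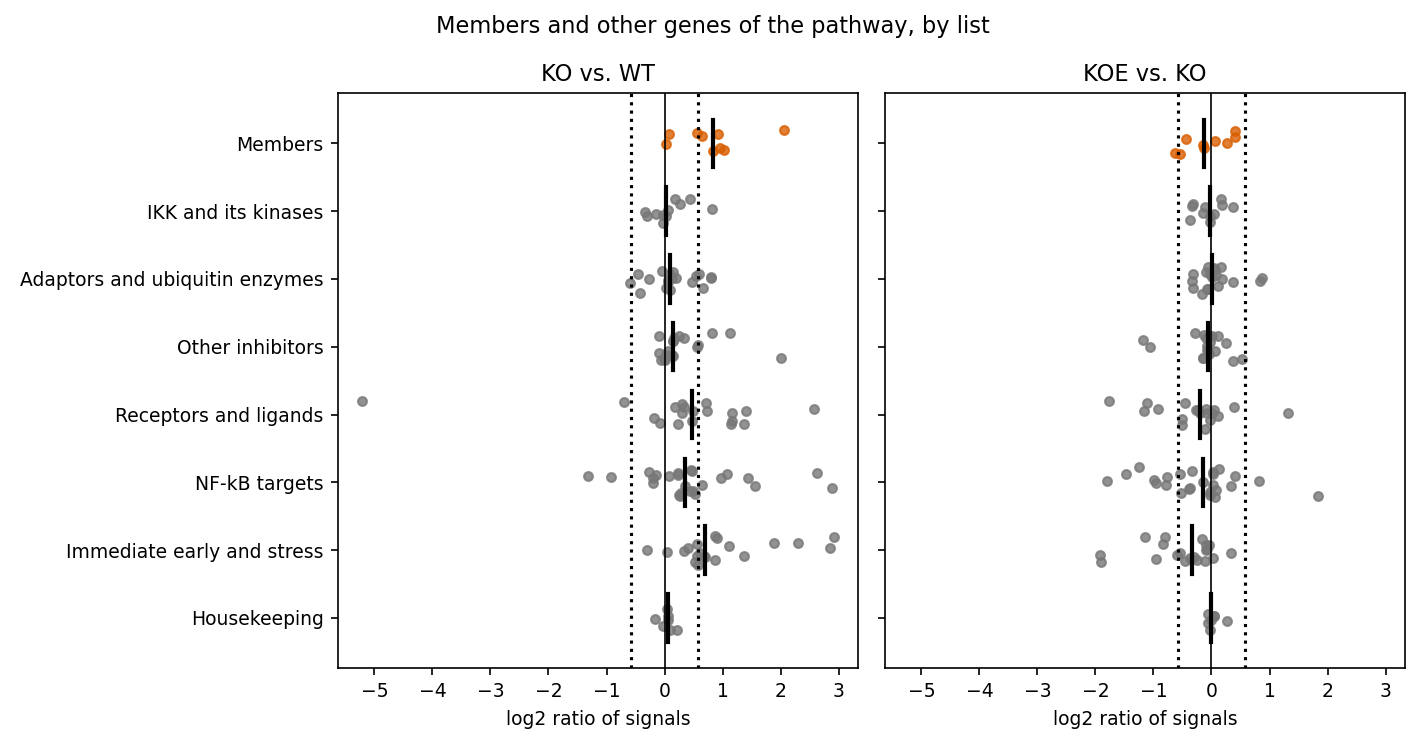
Log2 ratio of signals in KO vs. WT and KOE vs. KO for the 9 measured members and for genes of 7 other lists that reached 40 in at least 1 of the 2 arrays, with 1 point per gene, black bars at the medians and dotted lines at 1.5-fold. In KO vs. WT the median of the members is 0.84, that of the immediate early and stress genes 0.69, and that of the kinases 0.02.

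Besides the muscle and fat markers given above, immediate early and stress genes and markers of some immune cells differed between the pools. Of 20 immediate early and stress genes, which respond fast to signals and to the handling of tissue, 12 were higher in KO than in WT and none was lower. In KOE vs. KO, 7 were lower and none was higher. Atf3, a stress-induced factor, had 715 in KOE, 1573 in KO and 207 in WT. Nr4a1, an orphan nuclear receptor, had 948 in KOE, 3580.3 in KO and 495 in WT. Fosb, a subunit of AP-1, had 179 in KOE, 666 in KO and 135 in WT. Klf4, the strongest signal of the list, had 16322 in KOE, 16078.3 in KO and 10775 in WT. None of 7 housekeeping genes was past the cut-off in any comparison, and Rplp0, a ribosomal protein, had 30781 in KOE, 29877 in KO and 28671 in WT. The part of the immediate early and stress genes in the member results was not tested.

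Of 5 measured neutrophil markers 3 were higher in KO than in WT, and KOE had 3 lower than KO, with summed signals of 689 in KOE, 1505 in KO and 1240.1 in WT. S100a8 and S100a9 are among these markers as well as among the targets above. Of 6 mast cell markers 3 were higher in KO than in WT, and KOE had 4 lower than KO, with sums of 1458 in KOE, 2817 in KO and 1682 in WT. Of 10 macrophage and dendritic cell markers none was past the cut-off in KO vs. WT, while KOE had 4 lower and 1 higher than KO, with sums of 28642 in KOE, 35451 in KO and 34444 in WT. Of 7 T and natural killer cell markers 1 was higher in KO than in WT, and the sums were 1917 in KOE, 1905 in KO and 1584 in WT. The 4 B cell markers summed to 176 in KOE, 129.7 in KO and 128.6 in WT, with Cd79a and Cd79b, which encode parts of the B cell receptor, under 40 on every array. Cd4, Cxcr2 and Fcer1a were also under 40 on every array. Of 5 endothelial markers 1 was higher in KO than in WT and 3 were higher in KOE than in WT, with sums of 2569 in KOE, 2242 in KO and 1612 in WT. The part of these cells in the ratios of Rel and the other members was not tested.

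The genes whose pattern was most like that of Nfkbia and of Rel were sought among the 12887 genes with at least 40 on all 3 arrays, by the distance between log2 ratios in KO vs. WT and KOE vs. KO. With 3 arrays such a pattern is only a pair of ratios. For Nfkbia the 3 nearest were Ptk6, an epithelial tyrosine kinase, at 0.01, and Ifi47 and Ly6e, both known as interferon-induced, at 0.04 each, and 44 genes lay within 0.1. For Rel the nearest were Upk3b at 0.01, Hamp2 at 0.17 and 2310043M15Rik at 0.22, and 1 gene lay within 0.1. Upk3b had 201 in KOE, 272 in KO and 65.8 in WT.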

How the data were processed

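Pooled back-skin RNA of the KOE, KO and WT groups, 250 ng each, had been hybridised to 1 Affymetrix mouse expression array per group. Linear signal intensities were deposited by the authors, made with R and the Affymetrix Microarray Analysis Suite, and each array's 2% trimmed mean was checked and found at 500, so that ratios are relative to the array's average signal. After 64 control probe sets were left out, names came from the platform annotation, updated by gene identifier for 34741 of 34945 probe sets with 1 gene. Of the others, 932 have several genes and 9160 are unnamed here. Signals of at least 40 were reached by 31298 probe sets in KOE, 29390 in KO and 30769 in WT.

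The cut-off of 1.5-fold and a signal of 40 came from the methods, where the array to which the 40 applies is not stated. With 1 array per group no test was possible. The members, the gene lists and the rule for named genes were chosen with earlier results of these data known. The rule names all members, and of each list the 2 genes furthest past the cut-off in KO vs. WT and in KOE vs. KO with at least 40 in both arrays, and the strongest gene. The counting code was run on simulated data. Its planted changes were larger than most member ratios here, and its noise was smaller than the spread between probe sets. It therefore checks the code and not the calls. Python 3.11.15 (numpy 2.4.6, pandas 2.3.3) and R 4.3.3 (limma 3.58.1) were used. Alternatives changed the signal limit (100, none, or 40 in both arrays), the scaling (common median, quantile, or cyclic loess, span 0.7, 3 iterations), the fold limit (2), the probe sets read for a gene, or added 40 to all signals. Protein sequences were not analysed here.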

Additional observations from a re-analysis of the deposited data

How the results depend on the processing

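Of the 9 measured genes, between 5 and 7 were higher in KO than in WT under 9 of the 10 alternatives and none was lower. Under those 9, between 7.96% and 23.3% of all genes were higher and between 8.83% and 18.4% were lower. With a fold limit of 2, 2 were higher in KO than in WT, Rel and Tnfaip3, against 4.27% of all genes. At that limit 2 were higher in KOE than in WT, Rel and Relb, against 4.84%. In KOE vs. KO the 1 lower gene became 3 after median scaling, where 9.06% of all genes were lower. The count was 2 after cyclic loess normalization, with 7.12% of all genes higher and 7.57% lower. After quantile normalization it stayed at 1, with 7.69% and 7.87%. With a fold limit of 2 it was 0, with 2.29% of all genes lower. Without probe sets ending in x_at or s_at it was 2, with 5.5% of all genes lower. In KOE vs. WT, 1 gene, Nfkbib, was lower without those probe sets, against 10.7% of all genes. Its log2 ratio was then −0.71, and the mean of its probe sets gave −0.0074. Both follow from its weak probe set 1446718_at, whose signal in KOE is under 40. No other called ratio of a member changed sign under the alternatives. No paired analysis was possible because each group has 1 array. Array signals at or near 40, as for Rel in WT, limit the precision of a ratio, and without replicates its error is not known. Over 6178 genes with several probe sets at 40 in both arrays, log2 ratios of KO to WT within a gene had an SD of 0.36. The cut-off is 0.58 on that scale. Rela at 0.56, Relb at 0.65, Nfkbib at 0.84 and Nfkbia at 0.93 lie within that spread of it. In KOE vs. KO the same SD was 0.29, and Nfkbiz, the 1 lower gene, at −0.63, lies within that spread of the cut-off too.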
